A study of Mus musculus with 18 samples.

Results

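The 5 genes described here encode Ly6/uPAR proteins of the nervous system. They are *Lypd6*, *Lypd1*, *Lynx1*, *Ly6h* and *Ly6e*, and 4 of them have a row among the 12012 genes of the deposited table. *Lypd1* has none and no value is given for it. The genes were chosen by their family and by the value of *Lypd6* in the comparison described here. Their differences between the groups are thus given as a description and not as a test. Of 43 family genes listed by symbol, 5 have a row, namely the 4 above and *Lypd6b*, a gene next to *Lypd6* that encodes a close relative of it. The other 38 are not in the table, whose gene with the lowest mean was at 40.7 normalized counts, so genes used at a low level are not covered.

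Ly6/uPAR proteins share a small fold held together by disulphide bonds between cysteines, and many of them sit on the outer face of the cell membrane through a glycosylphosphatidylinositol (GPI) anchor. In the nervous system several members bind nicotinic acetylcholine receptors, the ion channels opened by acetylcholine, and alter their assembly, their number at the cell surface or their response to the transmitter. *Lynx1* is known as a brake on these receptors in the mature cortex, *Ly6h* as a protein that lowers the surface level of receptors containing the *Chrna7* subunit, and *Lypd1* (also called Lynx2) as a related neuronal modulator. *Lypd6* has been linked both to nicotinic receptors and to the Wnt coreceptor *Lrp6*, and *Ly6e* is a broadly used member first known from immune cells.

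The libraries were poly-A RNA of hippocampal cultures from mouse embryos at E18.5, grown on a coating of chondroitin sulphate proteoglycans (CSPG), the sugar-bearing proteins of the extracellular matrix. WT_CSPG cultures came from wild-type mice and KO_CSPG cultures from fibcd1 -/- mice of the Fibcd1tm1Lex allele bred on C57BL/6J, in which the receptor gene *Fibcd1* is disrupted. All 8 libraries thus share the CSPG coating, the tissue and the stage, with 4 libraries (A to D) in each group, and each replicate was a preparation of cells. The series labels 18 libraries, of which 8 have values in the table used here. The 10 others have none there and were not analysed, namely the uncoated cultures of both genotypes and replicate E of WT_CSPG. The series thus labels 5 WT_CSPG libraries, of which 4 enter the comparison. The comparison asks which genes differ between the genotypes in cultures on the CSPG coating. Without the uncoated cultures, a response to CSPG cannot be told apart from a genotype difference that is present without it. The paper turned to comparisons within a genotype, because it held that WT and KO cultures may differ in numbers of glia.

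Reads over the genes of the table numbered 10099564 to 11174615 in WT_CSPG and 10541445 to 11647202 in KO_CSPG. *Fibcd1* itself was at 54.3, 70.4, 60.1 and 182 normalized counts (A to D) in WT_CSPG, and at 0.970, 0.932, 7.16 and 4.74 in KO_CSPG. The groups did not overlap, as the genotype labels require, and replicate D of WT_CSPG stood above the other 3. All 12 pan-neuronal marker genes had a row, and so had 13 of 13 astrocyte and radial glia markers, 11 of 12 oligodendrocyte lineage markers and 10 of 14 microglia markers, so the cultures held glial RNA beside neuronal RNA. In such bulk samples, fewer cells of a type and less RNA per cell cannot be told apart.

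The members share a run of codons that marks the last part of the fold, a pair of neighbouring cysteine codons followed after 4 codons by another cysteine codon and an asparagine codon. These sequences are shown because most genes of the family list carry such a run. They were read from the coding strand of GENCODE M21 transcripts on GRCm38, with the cysteine codons in capitals.
Lypd6: TGCTGTgaaggaaatatcTGTaat
Lypd6b: TGCTGTgaaggaatgatcTGCaac
Lypd1: TGCTGCaacacccctcttTGCaat
Lynx1: TGTTGCcagtactacctcTGCaac
Ly6h: TGCTGCgagaaagatttgTGCaac
Ly6e: TGCTGCcaaagctccttcTGCaac

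Each of the 6 coding sequences held this run 1 time, in the later part: it began at codon 121 of 171 in *Lypd6*, 139 of 191 in *Lypd6b*, 100 of 141 in *Lypd1*, 85 of 116 in *Lynx1*, 124 of 160 in *Ly6h* and 98 of 136 in *Ly6e*. *Lypd6*, *Lypd6b* and *Lypd1* each had 15 cysteine codons, against 12 in *Ly6h* and 10 in both *Lynx1* and *Ly6e*. The run occurred in 18 of the 11451 genes of the table with a coding sequence (0.157%) and in 35 of 38 genes of the family list with one (92.1%). Only 5 genes of the family list have a row, so most of the 18 are not on that list, and the run alone does not define the family. Over its 24 bases, *Lypd6* and *Lypd6b* were identical at 20, *Lynx1* and *Ly6e* at 18, and *Lypd6* and *Lynx1* at 12. The cysteine and asparagine codons, by which the run was searched, give part of these matches in every pair.

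The genes lie in separate places of the genome. *Lypd6* (ENSMUSG00000050447) has 6 exons at chr2:50066429-50193569 on the plus strand, and *Lypd6b* (ENSMUSG00000026765, chr2:49787688-49948849, plus strand) ends 118 kb before it. *Lynx1* (ENSMUSG00000022594, chr15:74747852-74753046, minus strand), *Ly6e* (ENSMUSG00000022587, chr15:74955051-74959905, plus strand) and *Ly6h* (ENSMUSG00000022577, chr15:75551268-75567255, minus strand) lie in the large Ly6 cluster of the mouse, with 202 kb between *Lynx1* and *Ly6e* and 591 kb between *Ly6e* and *Ly6h*. *Lypd1* lies apart from both, at chr1:125867622-125913101 on the minus strand. Of the 50-base windows in the transcripts of *Lypd6*, *Lynx1*, *Ly6e* and *Lypd6b*, none occurred in another gene, and of those of *Ly6h* 0.206% did. No other gene overlaps *Lypd6*, *Lynx1*, *Ly6h* or *Ly6e*, while 2 genes on the opposite strand overlap *Lypd6b* and the strand setting of the counting is not given in the sources used here.

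*Lypd6* was higher in KO_CSPG in every library. In WT_CSPG it was at 1160, 1157, 1101 and 1044 normalized counts in replicates A to D, and in KO_CSPG at 1701, 1616, 1630 and 1669. The lowest KO_CSPG library was thus far above the highest WT_CSPG library. Means were 1115 ± 54.9 (SD, n = 4) and 1654 ± 38.5 (SD, n = 4), a fold of 1.48 with a 95% interval of 1.40 to 1.57. On the log2(normalized count + 1) scale the difference was 0.57 (SE 0.04). *Lypd6* was chosen by its value in this comparison, and the interval does not allow for that choice. The spread within a group was small, with a coefficient of variation of 4.92% in WT_CSPG and 2.33% in KO_CSPG. Counting error alone would give an SD of 33.9 and 40.0 normalized counts, which is below the SD observed in WT_CSPG and close to that observed in KO_CSPG.

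*Lynx1* was lower in KO_CSPG, by a smaller step. Its normalized counts were 234, 263, 261 and 255 in WT_CSPG and 207, 214, 228 and 222 in KO_CSPG. The groups did not overlap, although replicate A of WT_CSPG lay close to replicate C of KO_CSPG. Means were 253 ± 13.3 and 218 ± 9.27 (SD, n = 4 each), a log2 difference of -0.22 (SE 0.07). The 95% interval of the fold was 0.778 to 0.952, for this gene alone and without adjustment for the number of genes. *Lynx1* is a member and was chosen with earlier results of these data known. Its difference and this interval are thus a description and not a test, and no call is made from them.

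*Ly6h*, the member with the highest level, had groups that overlapped. It was at 2155, 2178, 2154 and 2371 normalized counts in WT_CSPG and at 2261, 2201, 2309 and 2314 in KO_CSPG. Replicate D of WT_CSPG was the highest of the 8 libraries, and the other 3 of WT_CSPG lay below every KO_CSPG library. Means were 2214 ± 105 and 2271 ± 52.9 (SD, n = 4 each), the log2 difference was 0.04 (SE 0.04), and the interval of the fold ran from 0.976 to 1.08.

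*Ly6e* was at 490, 512, 510 and 491 normalized counts in WT_CSPG and at 569, 496, 543 and 452 in KO_CSPG. The KO_CSPG libraries lay on both sides of the WT_CSPG libraries. Means were 501 ± 11.9 and 515 ± 51.7 (SD, n = 4 each), with a log2 difference of 0.03 (SE 0.06) and a fold interval of 0.940 to 1.12. The spread was wider in KO_CSPG than in WT_CSPG.

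*Lypd6b*, which was not chosen, differed from *Lypd6* in direction. It was at 149, 147, 140 and 136 normalized counts in WT_CSPG and at 118, 102, 95.1 and 144 in KO_CSPG. Replicate D of KO_CSPG lay within the range of WT_CSPG, and the other 3 lay below it. Means were 143 ± 6.49 and 115 ± 21.9 (SD, n = 4 each), and the log2 difference of -0.33 (SE 0.11) had an adjusted p of 0.111 in limma with Benjamini-Hochberg adjustment over all genes. Without that replicate *Lypd6b* passed the threshold.

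**Figure D1:**
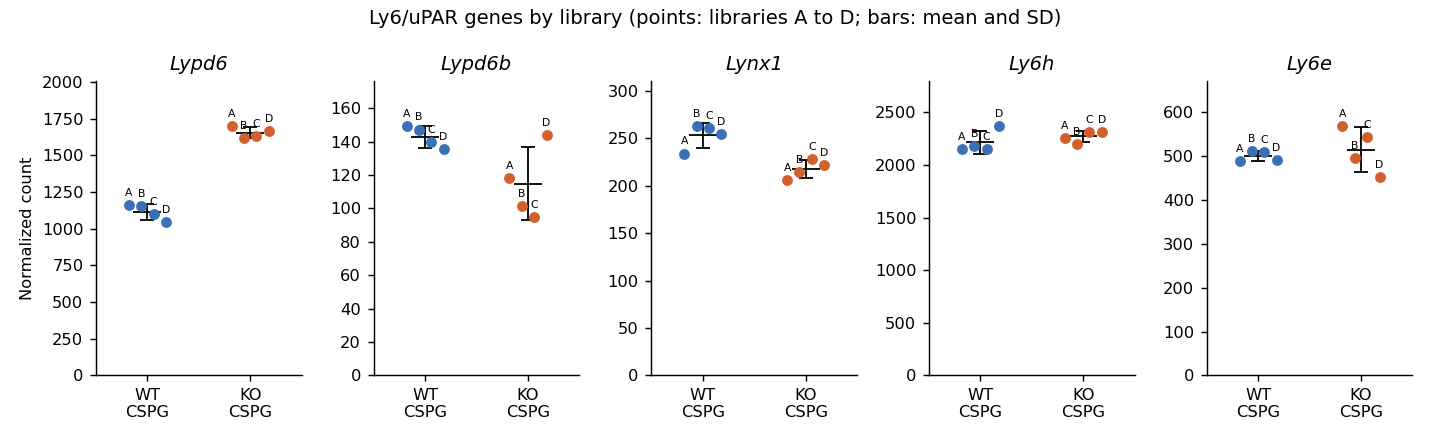
Normalized counts of *Lypd6*, *Lynx1*, *Ly6h*, *Ly6e* and *Lypd6b* in each library (points, with the replicate letter), for WT_CSPG and KO_CSPG on a separate vertical axis for each gene, with the mean and SD of 4 libraries. *Lypd6* lies at 1044 to 1160 in WT_CSPG and at 1616 to 1701 in KO_CSPG, while the groups of *Ly6h*, *Ly6e* and *Lypd6b* overlap.

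Over the 11553 genes that were counted, 327 passed the threshold of an adjusted p under 0.05 in limma (2.83%), 122 of them higher in KO_CSPG (1.06%) and 205 lower (1.77%), and the groups did not overlap for 1068 genes (9.24%). With upper-quartile scaling in place of the authors' size factors, 340 genes passed, of which 171 were higher. The members were selected on this comparison, so they are not counted against these shares.

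The transcripts differ in length, so levels were compared between genes as normalized counts per kb of the feature length in the table. Over the 8 libraries *Ly6h* was highest at 559 ± 20.7 per kb (SD, n = 8), followed by *Lypd6* at 371 ± 78.1, *Ly6e* at 134 ± 9.39, *Lynx1* at 50.5 ± 4.66 and *Lypd6b* at 49.5 ± 8.15. The ranges of neighbours in this order did not overlap, except those of *Lynx1* and *Lypd6b*, which do not differ beyond their spread. The wide spread of *Lypd6* comes from its 2 groups, at 299 ± 14.7 per kb in WT_CSPG and 443 ± 10.3 in KO_CSPG (SD, n = 4 each).

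The make-up of the family's transcripts shifted with it. *Lypd6* made up 25.3 to 28.7% of the summed per-kb level of the 5 genes in WT_CSPG and 35.2 to 36.2% in KO_CSPG, and *Ly6h* 49.3 to 53.4% and 44.7 to 46.4%. The ratio of *Ly6h* to *Lypd6*, both per kb, was 1.85 ± 0.18 in WT_CSPG and 1.28 ± 0.03 in KO_CSPG (SD, n = 4 each). Against its relative *Lypd6b*, *Lypd6* was at a per-kb ratio of 5.45 ± 0.06 in WT_CSPG and 10.3 ± 1.67 in KO_CSPG, with the widest spread where replicate D of KO_CSPG gave 8.09. These shares and ratios restate the values that chose the genes and carry no test.

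**Figure D2:**
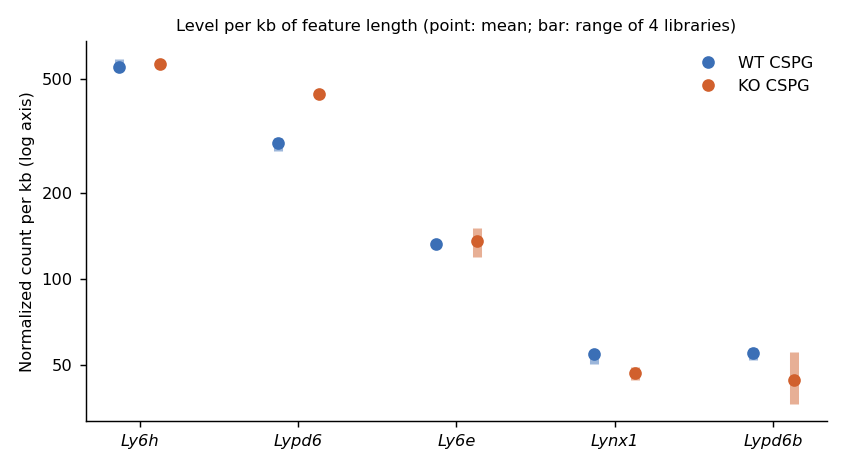
Normalized counts per kb of feature length (log axis) of the 5 family genes with a row, as the mean (point) and the range (bar) of the 4 libraries of each group. *Ly6h* and *Lypd6* stand above *Ly6e* in both groups, and the ranges of *Lynx1* and *Lypd6b* overlap near 50.5 and 49.5 per kb.

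The nicotinic receptors that these proteins bind did not pass the test in any subunit. Genes for 4 of 16 subunits had a row, and the log2 differences were 0.05 for *Chrnb2*, 0.02 for *Chrna4*, which pairs with *Chrnb2* in the commonest receptor of the brain, -0.14 for *Chrna7* and -0.04 for *Chrna5*. *Chrnb2* had means of 981 ± 66.0 and 1012 ± 35.2 normalized counts, and *Chrna7* 320 ± 10.1 and 291 ± 22.1 (WT_CSPG and KO_CSPG, SD, n = 4 each). The intervals of the fold were 0.967 to 1.10 for *Chrnb2* and 0.827 to 0.997 for *Chrna7*. The summed level of the 4 subunit genes overlapped between the groups, at 1495 to 1669 in WT_CSPG and 1562 to 1593 in KO_CSPG.

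Of 8 genes with a row on the list for receptor assembly, *Ywhah* passed the test. *Ywhah* encodes a 14-3-3 protein, of the class that binds receptor subunits on their way to the surface. It was at 1860, 1950, 1892 and 2075 normalized counts in WT_CSPG and at 2363, 2134, 2141 and 2283 in KO_CSPG. The groups did not overlap, and it rose by a log2 difference of 0.20 (SE 0.04, adjusted p = 0.00487, limma). *Hspa5*, a chaperone of the endoplasmic reticulum, also had groups that did not overlap, with a log2 difference of 0.09 and an adjusted p of 0.0866, and so had the ubiquitin-like protein gene *Ubqln1*, which did not pass either. The dedicated nicotinic receptor chaperones *Ric3* and *Tmem35a* had log2 differences of 0.03 and -0.02, with groups that overlapped.

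None of the 5 genes with a row for muscarinic receptors and the handling of acetylcholine passed the test, and their median log2 difference was 0.19. Their summed level did not overlap between the groups, at 598 to 652 normalized counts in WT_CSPG and 667 to 759 in KO_CSPG. The muscarinic receptor *Chrm3* was at 251 ± 11.8 and 286 ± 11.2 normalized counts and the acetylcholine-degrading enzyme *Ache* at 139 ± 15.6 and 162 ± 8.59 (SD, n = 4 each), with adjusted p values of 0.14 and 0.222. *Chat*, *Slc18a3* and *Slc5a7*, which make, load and take up the components of the transmitter, had no row.

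No gene of the machinery that makes and attaches the GPI anchor passed the test. Of its 27 genes with a row, none had groups without overlap, and the median log2 difference was 0.06. *Pigt*, a subunit of the transamidase that joins anchor and protein, was at 1215 ± 24.8 normalized counts in WT_CSPG and 1206 ± 19.1 in KO_CSPG (SD, n = 4 each). Summed over the list, levels were 9850 to 10172 in WT_CSPG and 9896 to 10352 in KO_CSPG.

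On the side of Wnt signalling, 2 of 19 genes with a row fell and none rose, with a median of -0.06. Both encode Frizzled receptors of Wnt ligands. *Fzd7* was at 479, 519, 501 and 447 normalized counts in WT_CSPG and at 418, 386, 382 and 448 in KO_CSPG, a log2 difference of -0.25 (SE 0.06, adjusted p = 0.0225, limma) with groups that overlap at replicate D. *Fzd6* was lower in level, at 60.6, 81.2, 83.4 and 69.3 in WT_CSPG and 50.4, 55.0, 46.0 and 51.2 in KO_CSPG, with a log2 difference of -0.52 (SE 0.14, adjusted p = 0.0379). *Lrp6*, the coreceptor linked to *Lypd6*, had means of 889 ± 45.1 and 842 ± 45.7 (SD, n = 4 each), a log2 difference of -0.08 and groups that overlapped. The beta-catenin gene *Ctnnb1* had a log2 difference of -0.07 and groups that did not overlap, and it did not pass the test. On this list 4 of the 19 genes had groups without overlap, against 9.24% of all genes.

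Over these lists and *Lypd6b* together, 64 genes had a row, 3 passed the test (4.69%, against 2.83% of all genes), 1 higher and 2 lower, and 8 had groups that did not overlap (12.5%, against 9.24% of all genes). The median log2 difference was 0.04, against 0.00 over all genes. The calls of *Fzd6* and *Fzd7* depended on single libraries, since *Ywhah* was the only call without replicate B or C of WT_CSPG or without A, B or C of KO_CSPG. None of the 3 calls, *Ywhah* included, was made without the variance trend of the fit or with the summed log2 level of the Y-linked genes, given with the sex-linked genes, as a covariate.

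**Figure D3:**
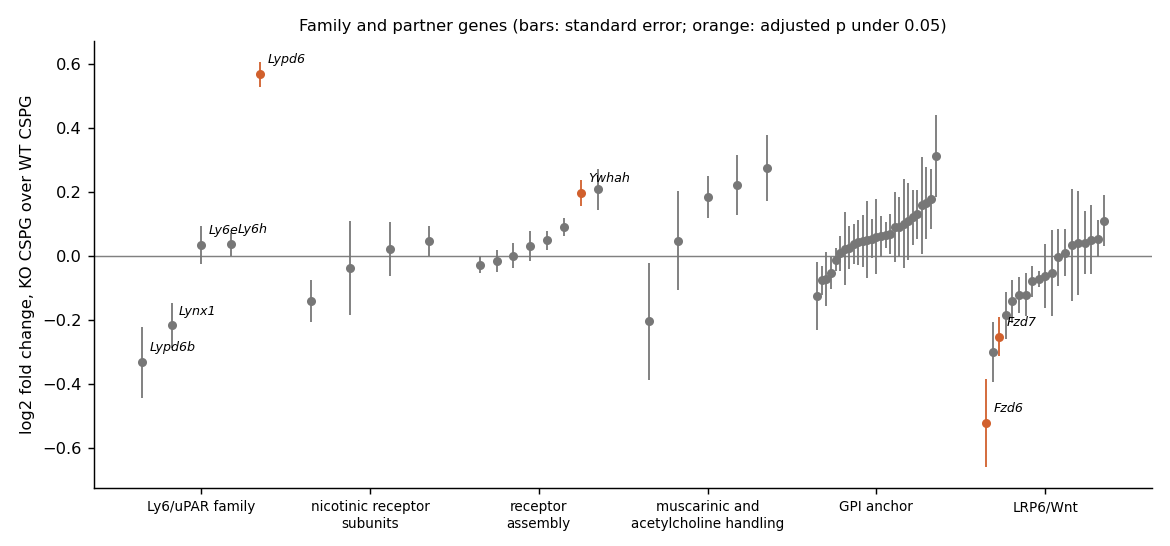
Log2 difference of KO_CSPG from WT_CSPG (log2(normalized count + 1)) for each gene with a row of the family and of the 5 partner lists, with its SE as a bar and genes past the threshold in orange. *Ywhah* at 0.20 lies above 0 and *Fzd7* and *Fzd6* at -0.25 and -0.52 lie below it, and the 4 nicotinic subunits lie between -0.14 and 0.05. The orange of *Lypd6* is not a test, since the gene was chosen by its value in this comparison.

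*Lypd6* and *Fibcd1* are both on chromosome 2, with their starts 18.3 Mb apart. Of the 20 other genes whose lower coordinate lies within 5 Mb of that of *Lypd6*, 2 passed the test, against 2.83% of all genes. *Mbd5* rose and *Mmadhc* fell. *Mbd5*, a chromatin protein gene, was at 528, 536, 501 and 506 normalized counts in WT_CSPG and at 576, 633, 566 and 593 in KO_CSPG, a log2 difference of 0.19 (SE 0.05, adjusted p = 0.0372, limma). *Mmadhc*, which encodes a protein of cobalamin metabolism and is the next gene of the table after *Lypd6*, was at 702, 690, 728 and 654 in WT_CSPG and at 601, 655, 580 and 583 in KO_CSPG, a log2 difference of -0.20 (SE 0.05, adjusted p = 0.0291). Its groups overlapped, since replicate B of KO_CSPG lay just above replicate D of WT_CSPG. Without replicate A or C of WT_CSPG, or without A of KO_CSPG, none of the 20 passed, and without the other libraries 1 did. Neither call was made without the variance trend or with the Y-linked covariate, where 0 of the 20 passed. Within 1 Mb, the other genes *Kif5c*, *Epc2*, *Gm13509* and *Lypd6b* had log2 differences of -0.00, -0.09, -0.11 and -0.33. *Lypd6*, at 0.57, was chosen by its value in this comparison, so its distance from them is a description and not a test.

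**Figure D4:**
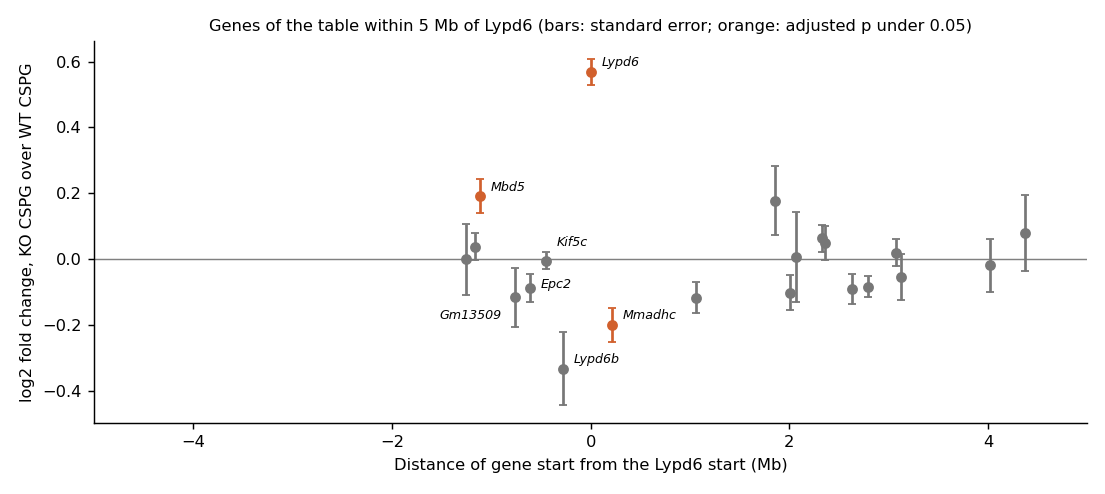
Log2 difference of KO_CSPG from WT_CSPG, with its SE, of each gene whose lower coordinate lies within 5 Mb of that of *Lypd6*, against that distance in Mb, with genes past the threshold in orange. *Lypd6* at 0.57 was chosen by its value in this comparison, so its orange and its height are not a test. Its 20 neighbours lie between -0.33 and 0.19.

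The 250 bases before the start of *Lypd6* are shown because they lie at the gene whose transcript differed most among the members. They are RefSeq's, at chr2:50066179-50066428 on the plus strand of GRCm38.p6, and CG dinucleotides are in capitals.
Lypd6: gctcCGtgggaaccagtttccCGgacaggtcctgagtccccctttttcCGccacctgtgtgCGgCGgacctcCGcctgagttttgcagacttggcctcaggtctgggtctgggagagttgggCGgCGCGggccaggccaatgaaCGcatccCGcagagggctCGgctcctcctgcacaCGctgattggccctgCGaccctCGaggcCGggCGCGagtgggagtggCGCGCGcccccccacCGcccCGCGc

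It held 24 CG dinucleotides and 70.4% G and C, against medians of 6 and 52.4% over 32851 promoters of the same length, and 88.0% of these had fewer CG. On both strands it held 2 matches each to the CCAAT box (CCAAT, found in 33.8% of promoters) and the GC box (GGGCGG, 32.7%), and 1 to the E box (CANNTG, 66.2%). The letters of the TATA box (TATAAA, 12.4%), the AP-1 site (TGACTCA, 4.46%) and the CRE (TGACGTCA, 1.55%) were not in this window.

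The genes with the pattern most like that of *Lypd6* over the 8 libraries were *Trub2*, *Hapln1*, *Ndn*, *Ets1* and *Olig1*. Likeness was the root mean square difference of the centred log2 values, at 0.079 for *Trub2*, 0.081 for *Hapln1*, 0.097 for *Ndn*, 0.099 for *Ets1* and 0.10 for *Olig1*, against a median of 0.300 over all other genes and 0.289 for a flat profile. *Hapln1* encodes a link protein that ties proteoglycans to hyaluronan in the matrix, and was at 773, 696, 718 and 740 normalized counts in WT_CSPG and at 1106, 1030, 1091 and 981 in KO_CSPG. *Ndn*, a gene used from the paternal allele, was at 1848, 1775, 1863 and 1825 in WT_CSPG and at 2969, 2988, 3087 and 2998 in KO_CSPG. In both genes the groups were far apart, with log2 differences of 0.52 and 0.72. All 5 were picked by likeness to *Lypd6*, whose profile is mainly its group difference. A difference between their groups thus follows from the choice and is not a test. *Olig1*, a transcription factor gene of the oligodendrocyte lineage, had means of 412 ± 28.5 and 620 ± 30.8 (SD, n = 4 each), and *Trub2* 340 ± 12.3 and 480 ± 17.5. *Trub2* (chr2:29761224-29788502) lies on the chromosome of the disrupted *Fibcd1* (chr2:31813290-31846005). *Hapln1*, *Ndn*, *Ets1* and *Olig1* lie on chromosomes 13, 7, 9 and 16. A part of position in these patterns was not tested.

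**Figure D5:**
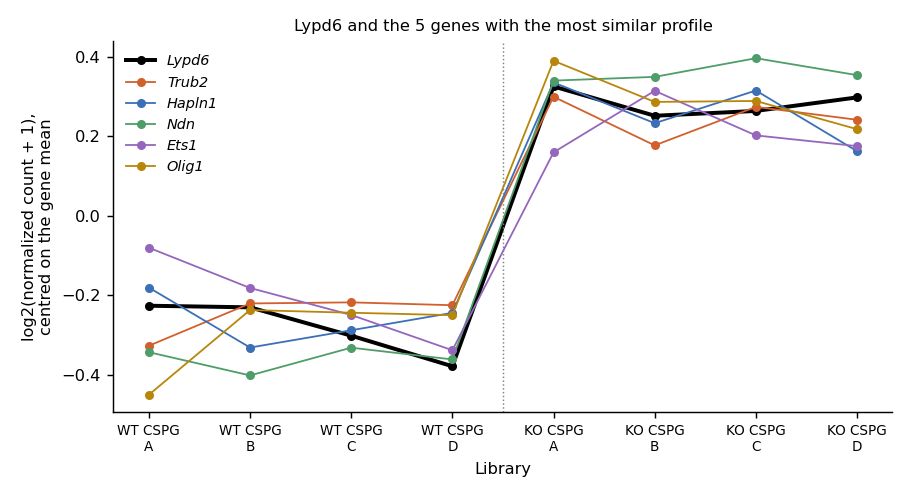
Centred log2(normalized count + 1) of *Lypd6* and of the 5 genes most like it in each of the 8 libraries, where lines only link the points of a gene. All 6 genes lie below their own mean in the WT_CSPG libraries and above it in the KO_CSPG libraries. This follows from picking the 5 by likeness to *Lypd6* and is not a test.

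Markers of other cells and states also moved between these groups. Oligodendrocyte lineage markers summed to 1455 to 1888 normalized counts in WT_CSPG and 2115 to 2314 in KO_CSPG, with *Olig2* and *Olig1* higher among 11 genes with a row, and *Mag* without one. Activity-regulated genes summed to 11657 to 13153 and 10181 to 10825, with 5 of 13 lower (*Nr4a2*, *Nr4a3*, *Nptx2*, *Fosb* and *Homer1*) and *Egr2*, *Egr3*, *Egr4* and *Arc* without a row. GABAergic interneuron markers overlapped in sum, at 13430 to 15545 and 14585 to 16159, and none of 19 passed the test, with *Pvalb* and *Vip* without a row. Their part in the difference of *Lypd6* was not tested.

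Further lists had sums that overlapped. None of the 12 pan-neuronal, 10 microglia, 4 endothelial and mural, 6 fibroblast and 10 proliferation genes with a row passed the test, and among excitatory neuron genes *Prox1* rose and *Neurod6*, *Fezf2* and *Neurod2* fell. Of 13 astrocyte and radial glia genes *Nes* fell, and of 6 choroid plexus genes *Igfbp2* fell.

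The choroid plexus genes stood apart in single libraries. All 6 had log2 differences below 0, from -2.95 to -0.13, and their sums were 1821 to 5801 normalized counts in WT_CSPG and 1612 to 1967 in KO_CSPG. *Ttr*, the transthyretin gene, was at 331, 953, 11.6 and 3529 in WT_CSPG and at 243, 115, 5.11 and 21.8 in KO_CSPG, highest in replicate D of WT_CSPG. Without that library the log2 difference of *Lypd6* was 0.54.

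The sex-linked genes also separated the groups. *Xist* was at 4596 ± 493 normalized counts in WT_CSPG and 7339 ± 828 in KO_CSPG, and *Ddx3y* at 783 ± 73.8 and 434 ± 31.2 (SD, n = 4 each). *Eif2s3y*, *Kdm5d* and *Uty* were likewise lower in KO_CSPG, with log2 differences of -0.72, -0.76 and -0.67, and genotype explained 91.2% of the variance of the summed Y-linked level. With that level as a covariate the log2 difference of *Lypd6* was 0.65, with a wider SE of 0.13, and *Lypd6* did not pass the threshold. The log2 difference of *Lypd6b* was 0.10 with an SE of 0.37, so its direction is not settled in that fit. Genotype and the sex make-up of the preparations cannot be told apart in these 8 libraries.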

How the data were processed

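Poly-A RNA was sequenced as 50-base single reads, aligned at a facility (build mm10 per the processing notes) and run through DESeq2 on Galaxy by the authors. The aligner and the counting program are not given in the sources used here. The deposited per-library values are a signal, the reads of each gene scaled by the size factor of its library, and 0 per-library columns were left unused. The authors also deposited their own comparison, a log2 fold change, its standard error, a Wald score and p-values, which were not used.

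The fit used log2(value + 1) in limma 3.58.1 under R 4.3.3 (trend and robust, groups of 4 against 4), with Benjamini-Hochberg adjustment over 12012 genes and a threshold of 0.05. Pseudogenes and sex-chromosome genes (459) entered the fit without being counted, which leaves 11553. Replicates are preparations of cells, and litter, preparation day and sex are not given per library, so p-values measure the spread between these preparations and no batch could be modelled. Every value was a whole multiple of 1 step per library (tolerance 0.01 of a read), which gave the reads. On simulated data, 93 of 100 genes changed by a log2 of 0.5 and 100 of 100 changed by 1 were recovered, and 10 of 11812 unchanged genes were called. The simulation gave every gene the same relative spread beyond counting error. It held no outlying library, sex or cell-type effect, so these rates may not hold for the real libraries.

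The members and gene lists were chosen with earlier results of these data known. Named genes are the members, *Fibcd1*, family genes with a row, the called genes and up to 4 of the highest genes of each partner list, genes within 1 Mb of *Lypd6*, the 5 genes most like it, the first markers of each marker list and the sex-linked genes. *Hspa5*, *Ric3*, *Chrm3*, *Ache*, *Pigt*, *Lrp6* and *Ctnnb1*, where outside this rule, were named for their function or values after these were seen, as were *Mbd5* and the called marker genes. Gene identifiers were looked up in GENCODE M21 (GRCm38), where 11991 were found and 9950 had the same coordinates. Starts are counted from 1. Alternatives were other pseudocounts, a filter, another scaling, no trend, the replicate letter as a block, a Y-linked covariate and each library left out. The result of 1 excitatory neuron marker is not reported here.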

Additional observations from a re-analysis of the deposited data

Results flagged for a closer look

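In 5 of 44 groups of 4 libraries, examined over 22 genes, 1 library stood apart from the other 3 by Dixon's criterion, where chance gives about 1 in 20, or 2.2. *Ly6h* was at 2371 normalized counts in replicate D of WT_CSPG, against 2154 to 2178 in the others. In the same library *Fibcd1* was at 182, against 54.3 to 70.4, and *Gm13509*, a gene within 1 Mb of *Lypd6*, at 234, against 191 to 198. In replicate A of WT_CSPG, *Trub2* was at 322, against 345 to 347, and *Olig1* at 369, against 424 to 428. Without replicate D of WT_CSPG the log2 difference of *Ly6h* was 0.07. *Lypd6* had no such library in either group.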

How the results depend on the processing

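The log2 difference of *Lypd6* was 0.54 to 0.59 when each library was left out. The other ranges were -0.25 to -0.19 for *Lynx1*, 0.02 to 0.07 for *Ly6h*, -0.01 to 0.10 for *Ly6e* and -0.45 to -0.25 for *Lypd6b*. The number of genes called (327) ranged from 177 without replicate A of KO_CSPG to 550 without replicate D of WT_CSPG, calls among the partner genes from 1 to 4, and calls within 5 Mb of *Lypd6* from 0 to 1. Without the variance trend, 73 genes were called, with 0 among the partner genes and 0 near *Lypd6*. With the Y-linked covariate, 1 gene was called, which was not *Lypd6*, with 0 among the partner genes and 0 near *Lypd6*. The log2 differences were then 0.65 (SE 0.13) for *Lypd6*, -0.37 (SE 0.24) for *Lynx1* and 0.10 (SE 0.37) for *Lypd6b*. In both settings the cause was not tested. Windows of 1 Mb and 10 Mb held 1 and 4 called genes. In the order of levels per kb, 1 pair of neighbours overlapped whichever library was left out, and without replicate C of KO_CSPG *Lypd6b* stood above *Lynx1*. The values near *Lypd6* under other fits were added after the data were seen.

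With the replicate block 404 genes were called, and 3 among the partner genes and 2 near *Lypd6*. Deviations from the group means had correlations of -0.07, 0.10, 0.27 and -0.01 for letters A to D, so the letters were not taken as pairs. The planned edgeR and DESeq2 fits on recovered reads were not run, since the table lacks the low genes by which recovered reads are checked. Genes under a mean of 40.7 are beyond these data.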
